A study of Mus musculus with 17 samples.

Results

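The nitric oxide and endothelin genes of cortical microvessels comprised 10 of the 42687 genes in the count table: Nos3, Nos1, Edn1, Edn3, Ednra, Ednrb, Ece1, Gucy1a1, Gucy1b1 and Pde5a. They were taken by symbol, with earlier results of these data known, and all 10 were among the 18753 genes that passed the filter on low counts. Messenger RNA was sequenced from microvessels of the brain cortex of 10 to 11 month old mice. The 17 libraries fell into 4 groups by genotype and peptide. WT mice received the control peptide sgp91-ds-tat (5 libraries) or gp91-ds-tat (5 libraries), a peptide inhibitor of NOX2, the superoxide-producing NADPH oxidase. APP/PS1 mice, a transgenic Alzheimer's disease model with amyloid deposits, received the control peptide (2 libraries) or the inhibitor (5 libraries). Every mouse was given a peptide at 10 mg/kg intraperitoneally every 2 days for 2 weeks, so no group was untreated. The labels name endothelium, pericytes and astrocytic endfeet as the cells of the preparation and do not say whether a library came from 1 mouse, so p-values measure the spread between these libraries. The labels give neither the line behind the APP/PS1 genotype nor the promoter of its transgenes.

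Nitric oxide and endothelin pull vessel tone in opposite directions. Nitric oxide synthases make nitric oxide from arginine. The gas binds soluble guanylate cyclase in smooth muscle and pericytes, which makes cyclic GMP and relaxes the cell until phosphodiesterases break the cyclic GMP down. Endothelins are made as inactive precursors that endothelin converting enzyme cuts to the active peptide. They constrict vessels through the type A receptor on contractile cells, while the type B receptor on endothelium promotes dilation and clears the peptide, and is also made by astrocytes.

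Total counts per library were 7316503 to 17862965 (median 11342154). Prnp was higher in APP/PS1 than in WT libraries (log2 change 1.34, edgeR adjusted p = 3.79e-06), with 682 to 1418 against 301 to 555 counts-per-million (CPM), and App was higher by 0.73 (edgeR adjusted p = 0.00631). Cybb, the NOX2 gene whose protein the inhibitor blocks, lay between 3.26 and 9.40 CPM in all libraries; the peptide is not made to change its RNA. All 7 endothelial, 7 pericyte and 6 astrocyte markers were measured in the libraries, and so were 7 neuron markers, whose summed level of 2550 to 4260 CPM was as high as the 2170 to 4250 CPM of the endothelial markers. Choroid plexus markers summed to between 29.4 and 8100 CPM. In RNA from a mixture of cells, fewer cells of a type and less RNA per cell cannot be told apart.

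All 10 genes were well covered. The lowest count of any of them in a library was 92, for Ednra, and the highest was 4862, for Ece1. Levels between genes were compared per length, as CPM per kilobase of annotated exon. In WT mice with the control peptide the converting enzyme gene Ece1 stood highest, at 46.4 ± 7.31 CPM per kilobase (SD, n = 5). Nos3, the endothelial synthase, followed at 22.7 ± 7.86, and then the cyclase subunit gene Gucy1b1 at 19.4 ± 1.76 and the ligand gene Edn1 at 17.2 ± 4.12 (SD, n = 5). Edn3, a second endothelin ligand, was at 10.8 ± 4.23, Ednrb, the type B receptor, at 9.20 ± 1.69, the other cyclase subunit Gucy1a1 at 9.17 ± 0.849 and Nos1, the neuronal synthase, at 7.75 ± 1.62 (SD, n = 5). Pde5a, a phosphodiesterase specific for cyclic GMP, at 4.08 ± 0.902 and Ednra, the type A receptor, at 2.87 ± 0.857 were the lowest (SD, n = 5). In this group only Ece1 and Nos3, and Nos1 and Pde5a, were neighbours in the order whose libraries did not overlap; every other pair of neighbours overlapped. The order was the same in WT mice with the inhibitor, and in both APP/PS1 groups Ednrb came before Edn3, with libraries of the 2 genes overlapping.

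**Figure D1:**
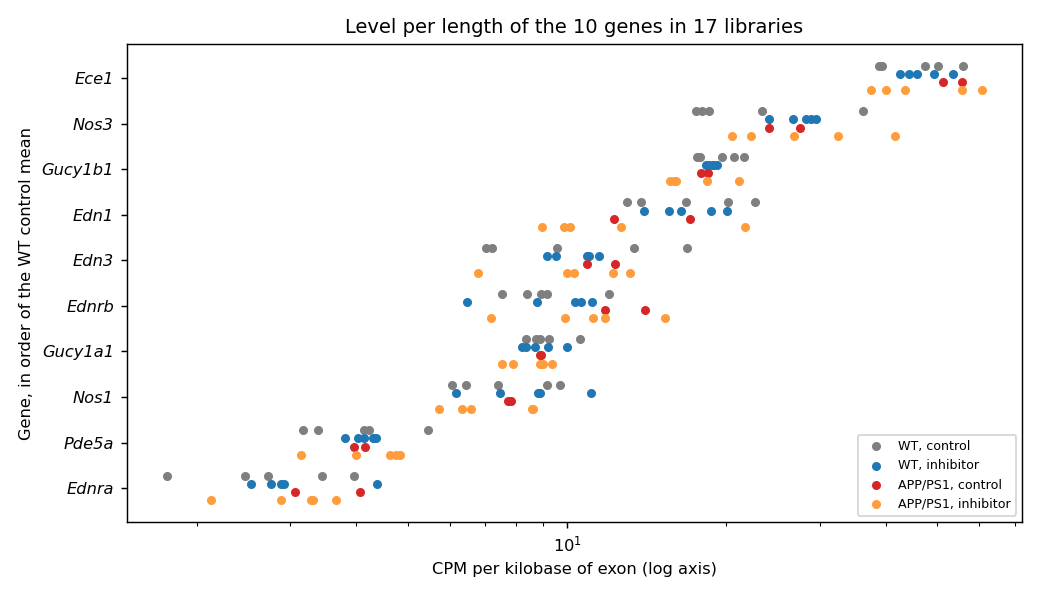
Level of each of the 10 genes per kilobase of exon (log axis, CPM per kilobase), with 1 point per library and 1 colour per group, in the order of the WT control mean. Ece1 averaged 46.4 and Ednra 2.87 CPM per kilobase in WT mice with the control peptide, and most neighbouring genes overlap.

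No gene of the set passed an adjusted p of 0.05 in any of 7 comparisons, with edgeR or with DESeq2. These were the genotypes over both peptides, the peptides over both genotypes, each genotype and each peptide contrast within 1 level of the other factor, and their interaction. Against 0 of 10 genes of the set, 0.587% of all 18753 tested genes passed for APP/PS1 against WT over both peptides. The corresponding share was 0.0533% with the control peptide and 0.181% with the inhibitor. In each of the 3 comparisons of inhibitor with control peptide and in the interaction it was 0.0%. In these 4 comparisons edgeR gave an unadjusted p under 0.05 to 396 genes over both genotypes, 252 in WT, 338 in APP/PS1 and 158 for the interaction, with none of the 10 among them and 0 genes past the adjusted threshold by DESeq2 too. The genes of the set are described below by role, with the interval of each difference, since a p that misses the threshold does not show that levels were alike.

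**Figure D2:**
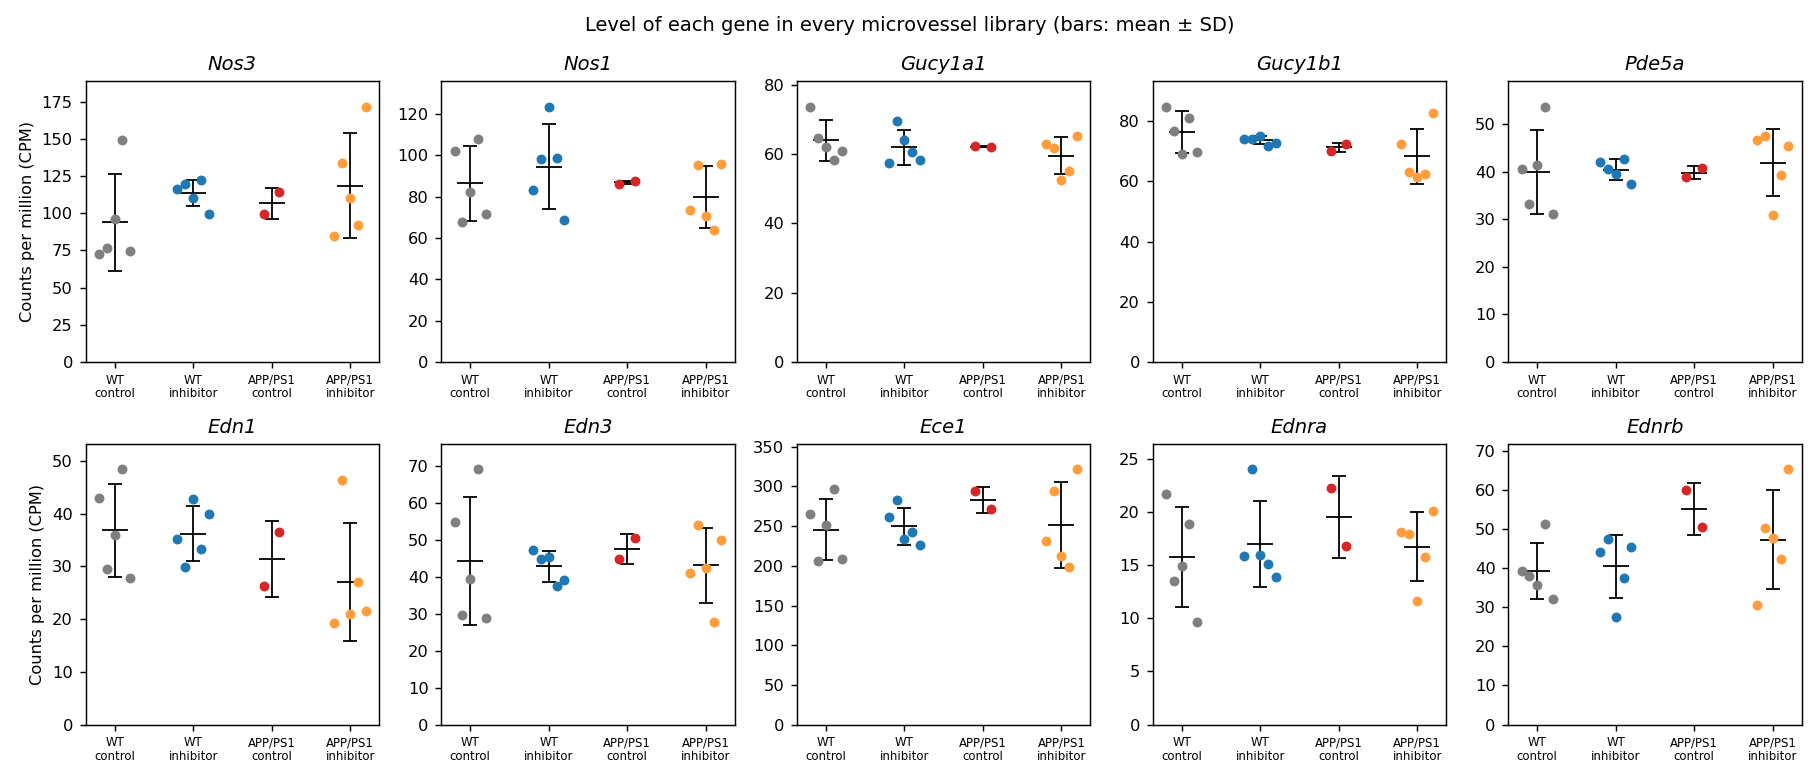
CPM of the 10 genes in every library (points) with the mean ± SD of each group (bars), by genotype and peptide. The WT and APP/PS1 ranges overlap for every gene, and 4 of the 5 Edn1 values of APP/PS1 mice with the inhibitor lie at 27.0 CPM or below.

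Nos3 makes the nitric oxide of endothelium. In WT mice with the control peptide its level was 72.4, 76.7, 96.4, 149 and 74.4 CPM, and with the inhibitor it was 117, 120, 111, 122 and 99.6 CPM. In APP/PS1 mice it was 99.3 and 114 CPM with the control peptide and 84.6, 134, 111, 92.0 and 172 CPM with the inhibitor. The WT inhibitor libraries lay close together above 4 of the 5 WT control libraries, and the fifth control library, at 149 CPM, was above all of them. The log2 change with the inhibitor was 0.28 in WT (SE 0.20, 95% interval -0.13 to 0.69, edgeR adjusted p = 1.0) and 0.15 in APP/PS1 (SE 0.26, -0.39 to 0.70, edgeR adjusted p = 1.0). With 1 library left out, the WT value ran from 0.195 (without WT control replicate 1) to 0.51 (without WT control replicate 4, the library at 149 CPM). Over both genotypes it was 0.23 (SE 0.15, interval -0.09 to 0.55), the largest inhibitor value of the 10 genes, with an unadjusted p of 0.143 by edgeR and an adjusted p of 1.0. Genotype gave 0.11 over both peptides (interval -0.21 to 0.42). Nos3 shares its locus with Atg9b, on the opposite strand at a mean of 3.32 CPM, and with the antisense gene Gm15587 at 1.70 CPM; the strand setting of the counting is not given in the sources used here.

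Nos1, the neuronal synthase, ranged from 64.0 to 124 CPM. Its log2 change was -0.15 in APP/PS1 (SE 0.13, 95% interval -0.41 to 0.11, edgeR adjusted p = 0.945) and 0.04 with the inhibitor (interval -0.23 to 0.30). Per kilobase of exon, Nos3 averaged 22.7 and Nos1 7.75 CPM in WT mice with the control peptide. The ratio of Nos3 to Nos1 in CPM within a library, not corrected for length, ran from 0.709 to 1.79. On the log2 scale it averaged 0.47 ± 0.23 in APP/PS1 (n = 7) and 0.19 ± 0.32 in WT (SD, n = 10), a difference of 0.28 (exact permutation p = 0.0626, two-sided, 0.204 after adjustment over 8 ratio comparisons). The test has no term for peptide, and the inhibitor gave a difference of 0.27 in the same ratio (exact permutation p = 0.0765). Without WT control replicate 1, the WT library in which Nos3 was least against Nos1, the genotype difference was 0.21. With each library left out in turn its unadjusted exact permutation p ran from 0.0365 to 0.147.

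The 2 subunits of soluble guanylate cyclase, the receptor for nitric oxide, were the steadiest of the set. Gucy1a1 lay between 52.6 and 73.7 CPM, a coefficient of variation of 8.14% over 17 libraries, and Gucy1b1 between 61.3 and 84.9 CPM, 9.12%; those of the other 8 genes ran from 14.3% for Pde5a to 26.9% for Edn1. Genotype moved neither gene past the threshold. The log2 change was -0.05 for Gucy1a1 (SE 0.07, 95% interval -0.19 to 0.09) and -0.10 for Gucy1b1 (SE 0.07, interval -0.25 to 0.04), with edgeR adjusted p of 0.984 and 0.899. With the inhibitor the values were -0.05 for Gucy1a1 (interval -0.19 to 0.09) and -0.06 for Gucy1b1 (interval -0.20 to 0.09). The narrowest intervals of the set were theirs.

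The alpha and beta subunits form a heterodimer, and their genes are neighbours on mouse chromosome 3 (GRCm38, minus strand), 17.7 kilobases apart with 0 annotated genes between them. Per kilobase of exon, Gucy1a1 averaged 9.17 and Gucy1b1 19.4 CPM in WT mice with the control peptide. The ratio of Gucy1a1 to Gucy1b1 in CPM, not corrected for length, lay between 0.719 and 0.979 in the 17 libraries. Its log2 value averaged -0.20 ± 0.09 in APP/PS1 (n = 7) and -0.25 ± 0.11 in WT (SD, n = 10), an exact permutation p of 0.277. Across libraries the genes varied together (r = 0.652, permutation p = 0.00454, rho = 0.571, permutation p = 0.0179). Adjusted over 45 pairs, the permutation p was 0.0227 for r and 0.063 for rho, so only r passed the threshold. Without the 2 libraries farthest from the Gucy1a1 median, r was 0.361. The size of r thus depended on those libraries, and r within groups was 0.594. The 250 bases before a transcript start of each gene are shown because the pair varied together. The Gucy1a1 window is chr3:82145074-82145323 and the Gucy1b1 window chr3:82074712-82074961, both on the minus strand and written 5′ to 3′, with matches to 6 short motifs in capitals.
Gucy1a1: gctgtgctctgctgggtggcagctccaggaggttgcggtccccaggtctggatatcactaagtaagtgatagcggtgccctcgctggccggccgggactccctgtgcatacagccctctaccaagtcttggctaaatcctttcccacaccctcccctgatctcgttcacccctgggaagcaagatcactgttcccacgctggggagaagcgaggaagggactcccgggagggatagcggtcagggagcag
Gucy1b1: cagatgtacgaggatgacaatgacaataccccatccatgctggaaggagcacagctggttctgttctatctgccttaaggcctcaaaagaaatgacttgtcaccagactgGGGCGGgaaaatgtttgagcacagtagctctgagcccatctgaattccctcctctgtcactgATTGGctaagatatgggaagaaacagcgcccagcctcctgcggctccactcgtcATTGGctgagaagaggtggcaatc
The sequences are RefSeq's for GRCm38.p6, which list 9 of the 10 genes; of the Gucy1a1 windows listed, the one at an annotated GENCODE transcript start is printed. The motifs were searched on both strands. They were TATAAA, the core promoter box, CCAAT, a site of nuclear factor Y, and GGGCGG, a site of Sp1. The other three were AGATAA, a site of the zinc finger factors first found in erythroid cells, TGANTCA, a site of Fos and Jun, and ACGTG, the core of the hypoxia response element. Of 32851 promoter windows of that length 12.4%, 33.8%, 32.7%, 9.99%, 6.75% and 16.6% held them, in that order. The Gucy1b1 window held CCAAT 2 times on the opposite strand, at positions -78 and -24 from the start, and GGGCGG at position -140. The printed Gucy1a1 window held none of these letters, while the other window listed for Gucy1a1, not printed, held GGGCGG at position -238.

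Pde5a, which hydrolyses cyclic GMP and is the target of sildenafil, ranged from 30.8 to 53.8 CPM. Its log2 change was 0.03 in APP/PS1 (SE 0.10, 95% interval -0.19 to 0.25, edgeR adjusted p = 0.997) and 0.04 with the inhibitor (SE 0.10, interval -0.18 to 0.26). In WT the mean was 40.1 ± 8.87 CPM with the control peptide and 40.5 ± 2.16 CPM with the inhibitor (SD, n = 5 each). The noncoding gene 4930447N08Rik overlaps Pde5a on the opposite strand at a mean of 1.02 CPM.

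Edn1 encodes endothelin-1, the main endothelin of endothelium. Its level was 43.0, 29.4, 35.9, 48.4 and 27.7 CPM in WT with the control peptide and 35.2, 29.9, 42.8, 33.3 and 39.9 CPM in WT with the inhibitor. In APP/PS1 it was 26.3 and 36.5 CPM with the control peptide and 19.2, 46.3, 21.1, 27.0 and 21.6 CPM with the inhibitor. 5 of the 7 APP/PS1 libraries were below every WT library, and the remaining 2 lay within the WT range. The log2 change in APP/PS1 over both peptides was -0.35 (SE 0.17, 95% interval -0.70 to -0.01), with an unadjusted p of 0.0471 and an adjusted p of 0.776 by edgeR, so it did not pass the threshold. Unadjusted, 2 of the 10 genes and 6.38% of all tested genes had a p under 0.05 in this comparison. Within peptides it was -0.24 with the control peptide (SE 0.28, interval -0.83 to 0.36) and -0.42 with the inhibitor (SE 0.21, interval -0.87 to 0.03), and the interaction was -0.18 (SE 0.35, edgeR adjusted p = 1.0). APP/PS1 inhibitor replicate 2, the library at 46.3 CPM, weighed most on the genotype value, which was -0.52 without it (edgeR adjusted p = 0.167, the smallest of 1450 refitted values of the 10 genes). With the inhibitor the value without that library was -0.71 (edgeR adjusted p = 0.286). At the other end, without APP/PS1 inhibitor replicate 1, the genotype value was -0.287 over both peptides and -0.312 with the inhibitor. With the control peptide it was -0.017 without APP/PS1 control replicate 1 and -0.491 without APP/PS1 control replicate 2.

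Edn3 encodes endothelin-3, which binds the type B receptor with high affinity. Its level was 55.0, 29.6, 39.4, 69.2 and 28.9 CPM in WT with the control peptide and 47.3, 44.9, 45.3, 37.7 and 39.2 CPM in WT with the inhibitor. In APP/PS1 it was 44.8 and 50.6 CPM with the control peptide and 41.2, 54.0, 42.4, 27.8 and 50.2 CPM with the inhibitor. The WT control libraries spread most widely and spanned every other library except the lowest APP/PS1 one. The log2 change was 0.04 in APP/PS1 (SE 0.16, 95% interval -0.29 to 0.38, edgeR adjusted p = 0.998) and -0.09 with the inhibitor (SE 0.16, interval -0.42 to 0.25).

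The ratio of Edn1 to Edn3 in CPM within a library needs no scaling between libraries and is not corrected for length. Per kilobase of exon, Edn1 averaged 17.2 and Edn3 10.8 CPM in WT mice with the control peptide. The ratio of CPM was examined after the values of both genes had been seen. In WT libraries its log2 value lay between -0.59 and 0.03 (mean -0.23 ± 0.22, SD, n = 10), and in APP/PS1 libraries between -1.21 and -0.04 (mean -0.69 ± 0.45, SD, n = 7). The difference was -0.46 (exact permutation p = 0.0149, two-sided, over 19448 splits), and it failed correction over 8 ratio comparisons (adjusted p = 0.119). It was lower than every WT library in 4 of 7 APP/PS1 libraries, and with 1 library left out in turn it ran from -0.57 to -0.37. The inhibitor gave -0.15 (exact permutation p = 0.447). The 250 bases before the starts of both ligand genes are shown because this ratio is of the 2 ligands. Across libraries the ligands correlated positively without passing adjustment (r = 0.447, permutation p = 0.0732, rho = 0.532, permutation p = 0.0313, adjusted p = 0.145 and 0.0831 over 45 pairs), and r was 0.542 without the 2 farthest libraries and 0.549 within groups. The Edn1 window is chr13:42301226-42301475 and the Edn3 window chr2:174760369-174760618, both on the plus strand of GRCm38.p6 (RefSeq), with matches to the same 6 motifs in capitals.
Edn1: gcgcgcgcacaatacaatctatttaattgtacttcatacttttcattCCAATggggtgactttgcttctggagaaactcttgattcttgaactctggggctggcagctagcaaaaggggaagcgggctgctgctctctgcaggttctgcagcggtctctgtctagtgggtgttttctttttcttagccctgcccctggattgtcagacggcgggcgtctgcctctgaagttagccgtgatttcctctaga
Edn3: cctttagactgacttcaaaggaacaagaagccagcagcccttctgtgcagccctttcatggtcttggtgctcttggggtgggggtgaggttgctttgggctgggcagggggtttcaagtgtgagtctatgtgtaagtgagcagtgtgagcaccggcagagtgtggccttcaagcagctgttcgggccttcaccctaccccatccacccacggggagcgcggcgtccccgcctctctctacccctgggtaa
The Edn1 window held CCAAT once, at position -203 from the start, and the Edn3 window held none of the 6 motifs.

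**Figure D3:**
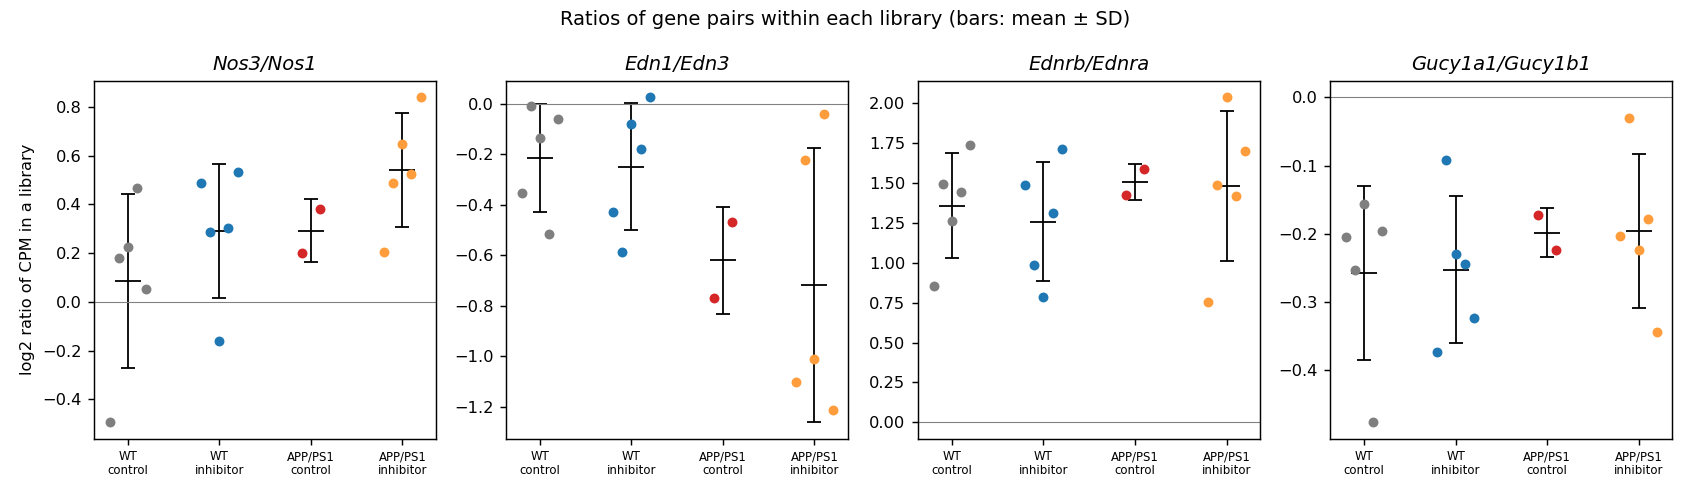
Log2 ratio of the CPM of 2 genes within each library (points), not corrected for length, with the mean ± SD of each group (bars). The Edn1 to Edn3 ratio reaches -1.21 in APP/PS1 libraries against a lowest WT value of -0.59, and the Gucy1a1 to Gucy1b1 ratio stays between 0.719 and 0.979 on the linear scale.

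Ece1, the endothelin converting enzyme at the cell surface, ranged from 199 to 322 CPM. Its log2 change was 0.08 in APP/PS1 (SE 0.10, 95% interval -0.13 to 0.30, edgeR adjusted p = 0.984) and -0.05 with the inhibitor (interval -0.27 to 0.17). The 2 APP/PS1 control libraries stood at 295 and 272 CPM, within the range of the other groups.

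Ednrb was the only gene of the set besides Edn1 with an unadjusted p under 0.05 between genotypes. Its level was 39.2, 38.0, 35.8, 51.2 and 32.1 CPM in WT with the control peptide and 44.2, 47.5, 27.6, 37.4 and 45.4 CPM in WT with the inhibitor. In APP/PS1 it was 59.9 and 50.4 CPM with the control peptide and 30.6, 50.3, 47.7, 42.2 and 65.2 CPM with the inhibitor. 2 APP/PS1 libraries lay above all WT libraries and 5 lay within the WT range; both APP/PS1 control libraries were above every WT inhibitor library. The log2 change over both peptides was 0.32 (SE 0.14, 95% interval 0.03 to 0.61), with an unadjusted p of 0.0312 and an adjusted p of 0.695 by edgeR. It was 0.49 with the control peptide (SE 0.23, interval 0.01 to 0.97, edgeR adjusted p = 1.0) and 0.22 with the inhibitor (SE 0.18, interval -0.15 to 0.59, edgeR adjusted p = 1.0). The interaction, -0.27 (SE 0.29, interval -0.88 to 0.34), did not pass the threshold either. The inhibitor gave -0.06 over both genotypes (interval -0.35 to 0.23).

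Astrocyte and microglia markers are given beside Ednrb. Of the 6 microglia markers 5 were called higher in APP/PS1, with a median log2 change of 0.69 against 0.0017 over all tested genes, and their part in the Ednrb value was not tested. Of the 6 astrocyte markers 1 was called and all 6 had positive values, with a median of 0.21. The gene called was Gfap, the intermediate filament of reactive astrocytes, at 1.21 (SE 0.15, edgeR adjusted p = 0.000125). Aqp4, the water channel of astrocyte endfeet, was at 0.46 (SE 0.17, edgeR adjusted p = 0.487). The summed level of the astrocyte markers ran from 3250 to 3630 CPM in WT control libraries, 3000 to 4440 in WT inhibitor libraries, 3770 to 4780 in APP/PS1 control libraries and 3110 to 5180 in APP/PS1 inhibitor libraries, with no marker at 0 in all libraries. With the mean log2 level of these markers as a covariate, a fit added after the data had been seen, the genotype value of Ednrb was -0.10 and that of Aqp4 -0.11. Aqp4 is itself one of these markers, so its value was adjusted for a score that contains it and cannot be set beside that of Ednrb. Gfap is another of the markers and differed by genotype, so this covariate also carries part of the genotype. Edn1 was at -0.39 in the same fit (unadjusted p = 0.117 by edgeR). With mural (smooth muscle and pericyte), neuron or endothelial markers as the covariate, Ednrb was at 0.294, 0.295 and 0.329. Edn1 was at -0.436, -0.337 and -0.345 in those fits (edgeR adjusted p = 0.351, 0.642 and 0.446). The part of any cell type in these values was not tested.

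Ednra, the constricting receptor, was the lowest of the set, at 9.62 to 24.0 CPM. Its log2 change was 0.10 in APP/PS1 (SE 0.16, 95% interval -0.23 to 0.43, edgeR adjusted p = 0.991) and -0.02 with the inhibitor (SE 0.16, interval -0.35 to 0.31). Ednrb exceeded Ednra by 1.69 to 4.10 times in CPM within a library; this is not corrected for length. The log2 ratio differed between genotypes by 0.18 (exact permutation p = 0.318) and between peptides by -0.03 (exact permutation p = 0.865).

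**Figure D4:**
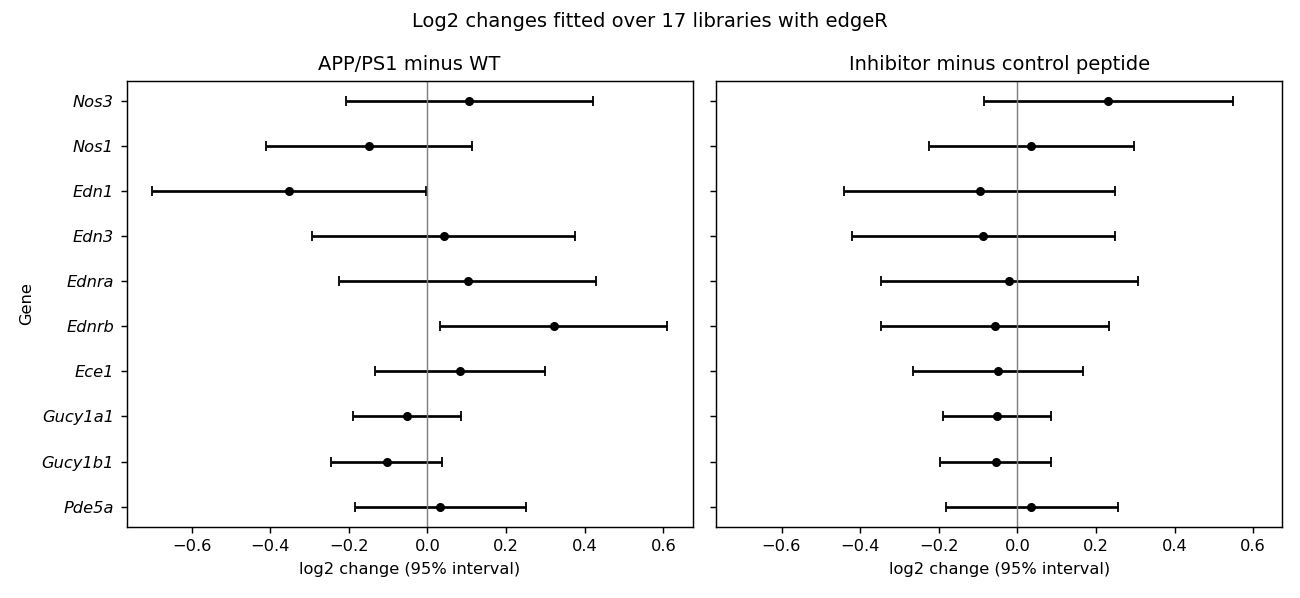
Log2 change of each gene with its 95% interval, for APP/PS1 minus WT over both peptides (left) and inhibitor minus control peptide over both genotypes (right). Only the genotype intervals of Edn1 (-0.70 to -0.01) and Ednrb (0.03 to 0.61) leave out 0 before adjustment.

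In the comparisons within 1 genotype or 1 peptide the values of the 10 genes spanned small ranges. Genotype values ran from -0.24 (Edn1) to 0.49 (Ednrb) with the control peptide and from -0.42 (Edn1) to 0.22 (Ednrb) with the inhibitor. Inhibitor values ran from -0.05 (Edn3) to 0.28 (Nos3) in WT and from -0.23 (Ednrb) to 0.15 (Nos3) in APP/PS1. The interaction ran from -0.33 (Ednra) to 0.07 (Pde5a), and 9 of the 10 genes had a negative value. Their median was -0.15, against -0.0032 for all tested genes. All measured markers of 6 lists were negative in the interaction too, with medians of -0.21 for the 7 endothelial, -0.27 for the 5 arterial endothelial, -0.13 for the 7 pericyte, -0.14 for the 6 smooth muscle, -0.19 for the 6 microglia and -0.32 for the 5 fibroblast markers, while the 5 choroid plexus markers were positive (median 1.13). The part of these cell types in the result was not tested. Comparisons that use the same libraries share their errors. Intervals in the comparisons with APP/PS1 control mice, which had 2 libraries, were up to 1.19 wide with the other genotype and 1.17 with the other peptide, against at most 0.695 over both peptides. Those of the interaction, which uses the same 2 libraries, were the widest, at up to 1.47.

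The genes were set against cell type markers across the 17 libraries, all groups pooled; differences between genes in these relations were not tested. Of 120 relations between a gene and the mean log2 level of a marker list, 27 had an adjusted permutation p under 0.05 for r, and 26 of these were positive. All correlations share the libraries and their total counts. Nos3, Edn3, Ece1 and Pde5a each passed with the endothelial, arterial endothelial, pericyte and fibroblast lists alike, with r of 0.653 to 0.836 for pericyte and 0.655 to 0.853 for fibroblast markers.

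Ece1 followed the endothelial markers (r = 0.919, rho = 0.895, both permutation p = 1e-05, the smallest that 100000 resamples allow, adjusted p = 0.0006), and r was 0.880 without the 2 farthest libraries. Nos3 followed the arterial endothelial markers Bmx, Gkn3, Efnb2, Sema3g and Vegfc more closely (r = 0.906, rho = 0.934, permutation p = 1e-05 each) than the general endothelial ones (r = 0.753, rho = 0.718, permutation p = 0.00048 and 0.00162); the difference between the coefficients was not tested. Without the 2 farthest libraries r was 0.865 with the arterial list and 0.724 with the general list. Edn3 followed the endothelial markers (r = 0.836, rho = 0.836, permutation p = 3e-05 and 6e-05; r = 0.812 without 2 libraries).

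Nos1 also varied with the endothelial markers (r = 0.782, rho = 0.777, permutation p = 0.0003 and 0.0004; r = 0.754 without 2 libraries). Its r with fibroblast markers was 0.667 (rho = 0.679, permutation p = 0.00367 and 0.00363) and 0.580 without 2 libraries. With neuron markers its r was 0.096 (permutation p = 0.714, rho = 0.010, p = 0.974), and with Sst, Npy, Chodl and Tacr1, genes of the interneurons known for strong Nos1, it was -0.13 (permutation p = 0.628, rho = -0.10, p = 0.713). Those 4 genes summed to 77.1 to 291 CPM, a 3.77-fold range, and Nos1 alone spanned a 1.93-fold range. Sst averaged 86.3 CPM and Chodl 0.72 CPM over all libraries, so the sum follows Sst far more than Chodl and is unlike the level of 1 gene. Which cells the Nos1 RNA came from was not tested.

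Ednrb was most like the astrocyte list (r = 0.804, rho = 0.789, permutation p = 5e-05 and 0.00031; r = 0.656 without 2 libraries), and within groups, after each group's mean was removed, r was 0.751. Its r with microglia markers was 0.743 (rho = 0.735, permutation p = 0.00063 and 0.00123) and 0.652 without 2 libraries. Ednrb also passed with arterial endothelial (r = 0.619), pericyte (r = 0.613) and oligodendrocyte markers (r = 0.615), each at an adjusted permutation p of 0.0403. Without 2 libraries these were 0.644, 0.472 and 0.304. Pde5a went with fibroblast markers (r = 0.853, rho = 0.779, permutation p = 4e-05 and 0.00041) and smooth muscle markers (r = 0.782, rho = 0.725, permutation p = 0.00027 and 0.00155); without 2 libraries these were 0.773 and 0.657. Ednra went with smooth muscle markers (r = 0.649, rho = 0.591, permutation p = 0.00519 and 0.0147), but r was 0.463 without 2 libraries. Smooth muscle markers had 6 of 6 positive log2 changes with the inhibitor (median 0.34, none called), when Pde5a was at 0.04 and Ednra at -0.02.

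Edn1 and Gucy1b1 had no relation with any marker list past the threshold. Edn1 with endothelial markers gave r = 0.482 (permutation p = 0.0510, rho = 0.527, p = 0.0316, adjusted p = 0.139 and 0.112) and 0.760 without the 2 farthest libraries. Gucy1a1 had the 1 negative relation, with choroid plexus markers (r = -0.60, rho = -0.60, permutation p = 0.0103 and 0.0122), which was -0.38 without 2 libraries.

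**Figure D5:**
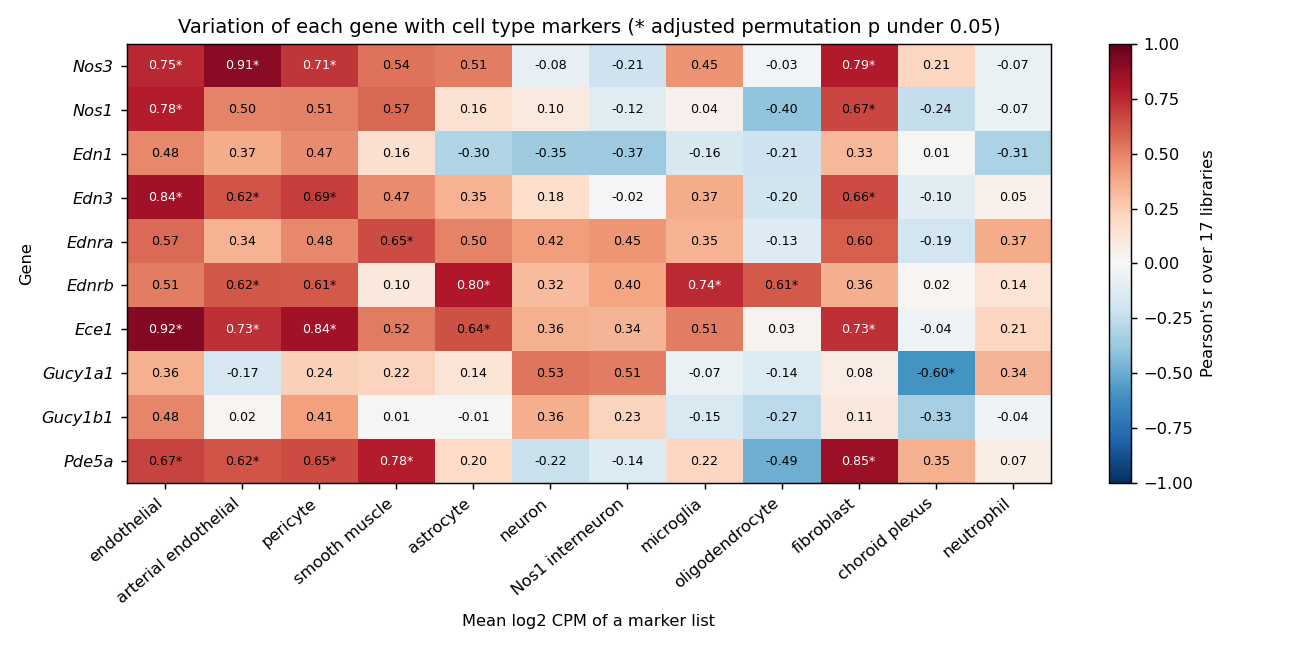
Pearson's r over 17 libraries between the log2 CPM of each gene (rows) and the mean log2 CPM of each marker list (columns), from -1 in blue to 1 in red; asterisks mark an adjusted permutation p under 0.05. Ece1, Edn3 and Nos1 are reddest under endothelial, Nos3 under arterial endothelial, Pde5a under fibroblast and Ednrb under astrocyte markers, and Edn1 has no asterisk.

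Among the 45 pairs of genes of the set, 15 had an adjusted permutation p under 0.05 for r, all 15 positive. The closest pairs were Edn3 with Ece1 (r = 0.813, rho = 0.809, permutation p = 4e-05 and 0.00021), Ednra with Ece1 (r = 0.754, rho = 0.787, permutation p = 0.00047 and 0.00033) and Nos1 with Edn3 (r = 0.718, rho = 0.721, permutation p = 0.00106 and 0.0016). Without the 2 farthest libraries r was 0.728, 0.740 and 0.750. Edn1 was in none of the 15 pairs; its highest r was 0.529, with Nos1 (permutation p = 0.0299, rho = 0.527, p = 0.0314, adjusted p = 0.0747 and 0.0831).

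The genes most like each member over the 17 libraries, among 17214 genes averaging at least 1 CPM, are given as a description. For Nos3 they were Tsc22d1 (r = 0.961), Caskin2 and Pdlim5, and for Ece1 Ptprm (r = 0.962), Rac1 and Arhgap31. For Ednrb they were Spcs2 (r = 0.924), Elovl5 and the endfoot channel Aqp4 (r = 0.898). Nos1 was most like Eif4b (r = 0.923), Glul and Spp1, and Edn3 most like Hnrnpk (r = 0.909), Jade1 and Crispld1. Ednra was most like Stk24 (r = 0.947), Hsbp1 and Stk3, and Pde5a most like Pygm (r = 0.922), Amotl1 and Trim56. Edn1 was most like Lpar6 (r = 0.829), Hrct1 and Slco1a4, an anion transporter of brain endothelium (r = 0.815). Of the cyclase subunits, Gucy1a1 was most like Igbp1 (r = 0.832), Shh and Dmp1 and Gucy1b1 most like Zfp148 (r = 0.751), Htr2a and Kcnj2.

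Of 77 further genes of the pathways 71 were tested, and 1 passed in APP/PS1 against WT over both peptides, against 0.587% of all tested genes. None passed in the other 6 comparisons. In the genotype comparison 6 of the 71 had an unadjusted p under 0.05, near the background of 6.38% of all tested genes.

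In nitric oxide synthesis and its cofactors 0 of 17 tested genes passed, with a median log2 change of 0.12 in APP/PS1. The smallest p was that of Ddah1, which degrades the endogenous synthase inhibitor asymmetric dimethylarginine. It averaged 30.4 ± 4.64 CPM in APP/PS1 (n = 7) and 24.6 ± 3.26 CPM in WT (SD, n = 10), a log2 change of 0.32 (SE 0.10, unadjusted p = 0.00526, adjusted p = 0.338 by edgeR). With the astrocyte markers as a covariate it was 0.05. Nos1ap, an adaptor of the neuronal synthase, had the smallest p with the inhibitor (0.15, SE 0.07, edgeR adjusted p = 1.0). Nos2, the inducible synthase, was low, at 2.30 to 8.40 CPM.

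In cyclic GMP and its targets 0 of 19 passed, with a median of -0.02 in APP/PS1. Pde3b, a phosphodiesterase that cyclic GMP inhibits, was at 0.17 (SE 0.08, edgeR adjusted p = 0.740) in APP/PS1. Prkg1, the cyclic GMP-dependent kinase, was at 0.11 (SE 0.07, edgeR adjusted p = 1.0) with the inhibitor. In endothelin processing and signalling 0 of 15 passed, with a median of 0.03. Itpr2, a calcium release channel of internal stores, was at 0.14 in APP/PS1 (SE 0.08, edgeR adjusted p = 0.852) and Gna13, a G protein alpha subunit, at 0.12 with the inhibitor (SE 0.10, edgeR adjusted p = 1.0). Edn2, the third endothelin ligand, did not pass the filter on low counts.

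The gene that passed was Tbxas1, thromboxane synthase, which makes the vasoconstrictor thromboxane A2. Its APP/PS1 libraries lay between 8.79 and 13.5 CPM and its WT libraries between 3.76 and 8.88 CPM, so the ranges met only at their edges. Tbxas1 rose by 1.02 on the log2 scale (SE 0.16, edgeR adjusted p = 0.00216). Microglia markers rose beside it, with 5 of 6 called and a median of 0.69, and their summed level was 191 to 264 CPM in WT and 228 to 438 CPM in APP/PS1; their part in the result was not tested. With the astrocyte marker covariate its log2 change was 1.05 and its adjusted p 0.0973 by edgeR. Of the other 19 tested genes of vasoactive peptides and prostanoids none passed. Adm, the vasodilator peptide adrenomedullin, had the smallest p with the inhibitor (-0.36, SE 0.21, edgeR adjusted p = 1.0).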

How the data were processed

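Messenger RNA of cortical microvessels, pelleted through dextran, was made into libraries with a stranded kit after ribosomal RNA depletion, per the labels' protocols. The authors deposited raw counts of reads per Ensembl gene, 1 column per library; 20 further columns of the table that match no sample label were not used. The submitters' processing notes name cutadapt, STAR, HTSeq and DESeq2 and the builds mm10 and GRCh37, with no versions or roles; the annotation is not given in the sources used here. Symbols, exon lengths and positions came from GENCODE M21 (GRCm38), which matched 42250 of 42687 gene IDs.

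From these counts, 18753 genes passed edgeR's filter on low counts (edgeR 4.0.16 in R 4.3.3), were scaled by TMM and tested with the quasi-likelihood F test over all 17 libraries. Comparisons between 2 groups and the interaction used a model of group means; comparisons over both levels of a factor used an additive model of genotype and peptide. P-values were adjusted by Benjamini-Hochberg over all 18753 genes, with a threshold of 0.05. A log2 change is APP/PS1 minus WT or inhibitor minus control peptide, and CPM uses the TMM library sizes. DESeq2 1.42.0, other scaling and filters, marker scores as covariates and leaving out each library were alternatives. Ratios were tested by exact permutation between genotypes or between peptides, with no term for the other factor, and correlations by 100000 permutations. No 2 libraries held the same values. Only the main edgeR fit of genotype over both peptides was tested on simulated counts. The other comparisons, DESeq2 and the covariate fits were not.

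Genes named were all 10 members, label checks, genes of the pathway lists past the threshold or, where a list had none, its smallest p in the 2 comparisons over both levels, the 3 genes most like each member, and markers of cell types beside a member. Members and lists were chosen with earlier results of these data known; Nos3, Edn1 and Ednrb were picked for the comparisons between 2 groups after their values had been seen, as were the ratios and the astrocyte and endothelial covariates.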

Additional observations from a re-analysis of the deposited data

Results flagged for a closer look

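Of 42 groups of 5 libraries checked for the 10 genes and 4 ratios, 1 held a library that stood apart from the others by Dixon's criterion. Ednra in WT mice with the inhibitor was highest in replicate 2, at 4.59 log2 CPM (24.0 CPM), and the next library was at 4.01; the gap was 0.738 of the group's range, against a critical value of 0.71. Chance alone marks about 1 in 20 such groups, or 2.1 of 42. Without that library the log2 change of Ednra was 0.21 in APP/PS1 over both peptides and -0.13 with the inhibitor over both genotypes.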

How the results depend on the processing

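No alternative brought any of the 10 genes past the threshold: 0 of 1450 refitted values had an adjusted p under 0.05. Counts of all genes called moved more. For genotype over both peptides 110 became 182 with DESeq2 and 31 with the astrocyte covariate; with the control peptide 10 became 45 with DESeq2, 17, 5 and 16 with the neuron, astrocyte and endothelial covariates; with the inhibitor 34 became 61 with DESeq2, 12 with the astrocyte and 57 with the endothelial covariate. With 1 library left out these counts ran from 70 (without APP/PS1 control replicate 2) to 125, from 4 (without APP/PS1 control replicate 2) to 17 (without WT control replicate 4), and from 15 (without WT inhibitor replicate 5 or APP/PS1 inhibitor replicate 2) to 38; the second was 6 without WT control replicate 3 or APP/PS1 control replicate 1, and the third 21, 19 and 17 without WT inhibitor replicate 1 or 3 or APP/PS1 inhibitor replicate 4. With 1 APP/PS1 control library the lone sample is assumed to vary like the other groups. The causes were not tested.

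The astrocyte covariate turned the genotype sign of Nos3 (-0.28), Edn3 (-0.22), Ednra (-0.20), Ednrb (-0.10), Ece1 (-0.20) and Pde5a (-0.042). That of Aqp4 turned too (-0.11), but Aqp4 is itself part of this covariate. The same covariate turned the genotype sign of Nos3 with the control peptide (-0.20) and those of Nos3 (-0.32) and Ednrb (-0.17) with the inhibitor. It also turned the inhibitor sign of Ednra (0.026) and Ednrb (0.000). The mural covariate, from smooth muscle and pericyte markers, turned the genotype sign of Edn3 (-0.013) and Pde5a (-0.017) and the inhibitor sign of Nos1 (-0.059), Pde5a (-0.047) and, in WT, Ednrb (-0.025); the neuron covariate turned that of Ednra (0.05). With 1 library left out, genotype values ran from -0.019 to 0.117 for Edn3, -0.004 to 0.086 for Pde5a and, with the inhibitor, -0.11 to 0.16 for Nos3. Inhibitor values over both genotypes ran from -0.041 to 0.086 for Nos1, -0.162 to 0.038 for Edn3, -0.128 to 0.076 for Ednra, -0.106 to 0.008 for Ednrb and -0.009 to 0.116 for Pde5a; in WT from -0.116 to 0.086 for Edn1 and -0.023 to 0.158 for Ednrb; in APP/PS1 from -0.493 to 0.044 for Edn1 and -0.018 to 0.257 for Nos3. The genotype values of Nos1, Edn1, Gucy1a1 and Gucy1b1 and the inhibitor values of Nos3, Edn1, Ece1, Gucy1a1 and Gucy1b1 over both levels kept their sign in every refit. The 2 libraries of APP/PS1 control mice limit the comparisons that use them. No paired analysis was possible because the labels carry no replicate numbers that tie libraries of different groups together.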
